A study of Homo sapiens with 20 samples.

Results

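The transcription factors that drive or oppose epithelial mesenchymal transition were followed in 20 human biliary tract cancer cell lines. The 10 genes are 7 repressors or inducers, ZEB1, ZEB2, SNAI1, SNAI2, TWIST1, TWIST2 and PRRX1, and 3 epithelial factors, GRHL2, OVOL1 and OVOL2. They were chosen by name: each symbol matched exactly 1 RefSeq entry, which gives 10 of the 24222 entries in the count table. CDH1, which encodes the adhesion protein E-cadherin and is the best known gene that the repressors shut off, was measured beside them. All lines are established cancer lines grown in culture, with 1 library from each, so every spread is a spread between lines and no value has a replicate within its line. By the tumour of origin, 7 lines came from a metastasis (G415, HuCCT1, Mz-ChA-2, NOZ, OCUG-1, OZ and Sk-ChA-1, 6 of them from ascites and 1 from liver) and 13 from a primary tumour. By site, 7 were gallbladder lines, 5 extrahepatic and 4 intrahepatic bile duct lines and 3 ampullary lines, and OZ is labelled with both duct sites. The 20 lines came from repositories labelled KCLB with 6 lines, RIKEN with 6, HSRRB with 4, DSMZ with 2 and Zurich with 2.

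Epithelial mesenchymal transition is the loss of cell junctions and polarity and the gain of a motile, matrix-producing state. The zinc finger proteins ZEB1, ZEB2, SNAI1 (Snail) and SNAI2 (Slug) bind E-box elements in the promoters of junction genes and repress them, while the basic helix-loop-helix proteins TWIST1 and TWIST2 and the homeodomain protein PRRX1 induce the programme. GRHL2, a grainyhead family activator of junction genes, and the zinc finger repressors OVOL1 and OVOL2 hold the epithelial state, and each of them can lower ZEB1, which in turn represses GRHL2 and OVOL2.

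The E-box read by ZEB and Snail proteins is CACCTG, or CAGGTG on the opposite strand. Of 35116 promoter windows of 300 bases, each from 250 bases before a transcription start to 50 after it (RefSeq, GRCh38.p14), 20.6% held at least 1 copy on either strand, 0.635% at least 3 and 0.094% at least 5. Of the 22 windows found for genes on the epithelial list used below, 13 held a copy, or 59.1%, and 4 held at least 3. No window was found for CDH1 or for the splicing regulators ESRP1 and ESRP2. Of 31 windows found for mesenchymal genes, 5 held a copy, or 16.1%. Of 10 windows found for ZEB1, ZEB2, TWIST2 and PRRX1, 2 held a copy, both of ZEB1. The windows of 3 junction and polarity genes and of ZEB1 itself are shown, each with 3 or more copies. They are printed 5′ to 3′ on the strand of the gene, with each E-box in capitals. MYO5B, also on the epithelial list, had 3 copies in its window, which is not printed. CRB3, a polarity protein of the Crumbs complex, has its window at chr19:6464021-6464320 on the plus strand, with 5 copies. CLDN7, a tight junction claudin, has its window at chr17:7262429-7262728 on the minus strand, also with 5 copies. PATJ, a scaffold of the same Crumbs complex, has its window at chr1:61742230-61742529 on the plus strand, with 3 copies. The ZEB1 window with the most copies lies at chr10:31318966-31319265 on the plus strand, with 3 copies. A match of these letters is a description of the window and does not show binding.
CRB3: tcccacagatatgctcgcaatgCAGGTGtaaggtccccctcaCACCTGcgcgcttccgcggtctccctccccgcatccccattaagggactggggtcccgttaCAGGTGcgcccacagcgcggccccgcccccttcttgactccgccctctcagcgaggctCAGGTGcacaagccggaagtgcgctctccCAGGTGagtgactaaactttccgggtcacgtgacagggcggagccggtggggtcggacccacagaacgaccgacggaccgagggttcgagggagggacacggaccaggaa
CLDN7: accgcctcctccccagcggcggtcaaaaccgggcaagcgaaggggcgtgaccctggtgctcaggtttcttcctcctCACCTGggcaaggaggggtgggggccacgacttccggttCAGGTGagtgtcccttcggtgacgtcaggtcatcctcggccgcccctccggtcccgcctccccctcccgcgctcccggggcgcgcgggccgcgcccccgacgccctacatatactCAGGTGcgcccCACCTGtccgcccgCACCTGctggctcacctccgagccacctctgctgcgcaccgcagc
PATJ: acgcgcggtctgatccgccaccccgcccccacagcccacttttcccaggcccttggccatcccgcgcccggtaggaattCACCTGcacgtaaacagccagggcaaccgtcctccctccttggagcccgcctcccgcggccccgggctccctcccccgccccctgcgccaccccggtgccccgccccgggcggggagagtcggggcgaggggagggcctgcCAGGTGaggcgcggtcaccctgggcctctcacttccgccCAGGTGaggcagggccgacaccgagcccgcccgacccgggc
ZEB1: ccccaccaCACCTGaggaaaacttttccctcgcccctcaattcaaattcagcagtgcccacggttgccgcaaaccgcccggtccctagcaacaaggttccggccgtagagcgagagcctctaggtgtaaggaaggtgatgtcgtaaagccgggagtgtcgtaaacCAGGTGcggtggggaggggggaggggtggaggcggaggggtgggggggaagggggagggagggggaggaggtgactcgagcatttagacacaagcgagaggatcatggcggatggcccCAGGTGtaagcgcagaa

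The libraries held 10.47 M counts in SNU-245, the shallowest, to 15.41 M in TFK-1, where M stands for mega. A count of 0 allows up to 3 counts, or 0.206 to 0.294 counts per M counts (CPM, on TMM-scaled totals) depending on the line. Of the biliary epithelial markers, KRT19 stood at 1.03 CPM in HuH28, the lowest line, with a median of 1437 CPM and a highest value of 7003 CPM in Sk-ChA-1, and KRT7 stood at 1 CPM or more in 19 of 20 lines, all except Mz-ChA-2. The summed level of the 11 biliary markers was lowest in HuH28, at 366 CPM against a median of 7927 CPM. The summed level of 11 fibroblast markers was highest in HuH28, at 10212 CPM against a median of 86.8 CPM. COL1A1 gave 7970 CPM of that fibroblast sum, and COL1A2 stood at 0.685 CPM in HuH28. COL1A2, LUM and PDGFRB were highest in other lines, and the other fibroblast markers in HuH28. Hepatocyte markers, 8 genes, summed to 5878 CPM in Mz-ChA-2, the highest line, against a median of 68.9 CPM. HuH28 kept 139 CPM of SOX9 and 59.4 CPM of KRT7, but its markers go against a biliary epithelial label for the most part, and where a call printed here is lost without it, that is said. The summed level of 9 leukocyte markers had a median of 95 CPM and reached 3107 CPM in SNU-245, mostly from LYZ at 3029 CPM. CD68 had 10.1 to 437 CPM in the 20 lines, and PTPRC, which marks leukocytes as a class, at most 1.32 CPM. In a line of cultured cells, fewer cells that express a gene and less RNA per cell cannot be told apart.

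CDH1 separated 5 lines from the other 15. It stood at 0.699 CPM in OCUG-1, 0.942 in G415, 1.73 in SNU-1079, 4.88 in HuH28 and 5.11 in NOZ, and at 34.9 CPM or more in every other line, with a median of 296 CPM over the 20 lines and a highest value of 902 CPM in EGI-1. The gap between NOZ and SNU-478 spanned 2.66 on the log2(CPM + 0.5) scale and was the widest between neighbouring lines. By counting error alone, OCUG-1 (exact Poisson 95% interval 0.32 to 1.33 CPM) and G415 (0.501 to 1.61 CPM) could not be ordered, nor could HuH28 (3.70 to 6.32 CPM) and NOZ (3.94 to 6.51 CPM). These intervals cover counting error only.

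**Figure D1:**
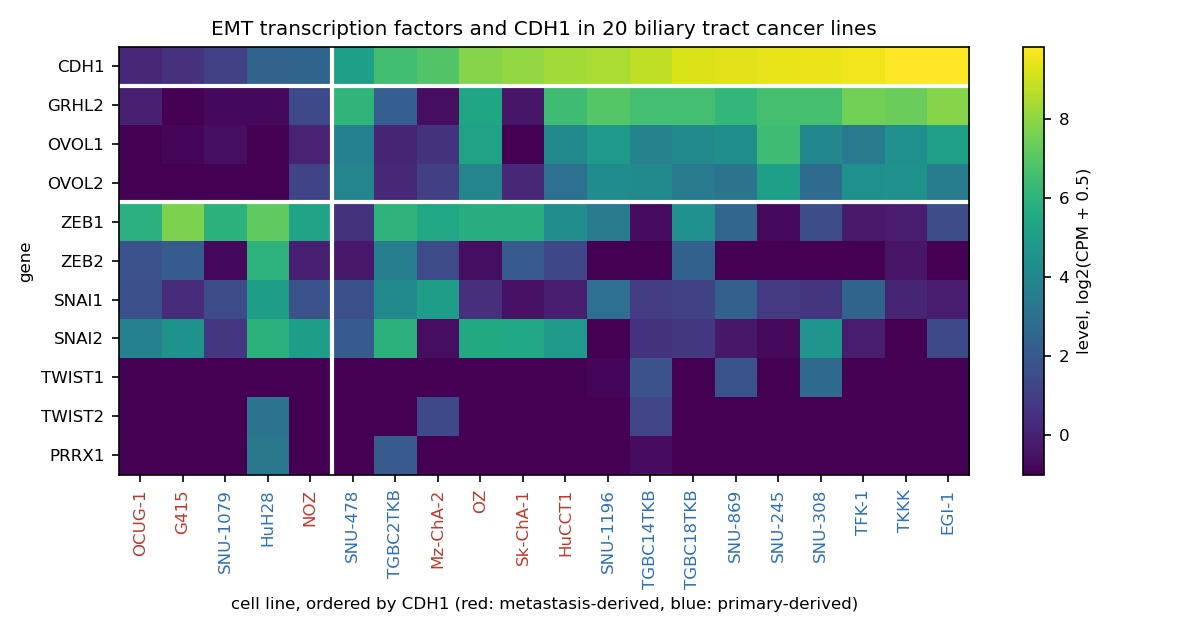
Heat map of the level of CDH1, the 3 epithelial factors and the 7 repressors and inducers (rows) in the 20 lines (columns, ordered by CDH1; red names are metastasis-derived, blue names primary-derived), as log2(CPM + 0.5). The vertical white line marks the CDH1 gap, with 5.11 CPM on its left and 34.9 CPM on its right; ZEB1 is bright in all 5 lines to the left, and GRHL2, OVOL1 and OVOL2 are dark in them and in TGBC2TKB, Mz-ChA-2 and Sk-ChA-1.

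The 3 epithelial factors were low or high together. GRHL2 was at 0 counts in G415, at a median of 69.2 CPM and at 231 CPM in EGI-1. It was at or below 4.19 CPM in 8 lines, OCUG-1, G415, SNU-1079, HuH28, NOZ, TGBC2TKB, Mz-ChA-2 and Sk-ChA-1, and at or above 42.4 CPM in the other 12. OVOL1, with 0 counts in OCUG-1, HuH28 and Sk-ChA-1, a median of 13.6 CPM and 86.4 CPM in SNU-245, split the same 8 lines, at or below 1.01 CPM, from the same 12, at or above 10.1 CPM. OVOL2, with 0 counts in OCUG-1, G415, SNU-1079 and HuH28, a median of 7.86 CPM and 33.6 CPM in SNU-245, again split these 8 lines, at or below 1.81 CPM, from the 12, at or above 6.44 CPM. In each gene this was the widest gap between neighbouring lines, which by itself keeps the 8 lines from overlapping the 12. How many other genes split the same lines was not counted. The 8 lines include the 5 with low CDH1 and 3 that kept it: TGBC2TKB had 93.9 CPM of CDH1, Mz-ChA-2 116 CPM and Sk-ChA-1 270.1 CPM. Of the genes whose E-box windows are printed above, CRB3 and CLDN7 did not overlap between the same 8 and 12 lines. They were added with their values known, and without a count over all genes this does not set them apart. CRB3 was at most 5.91 CPM in the 8 lines and at least 10.9 CPM in the 12, and CLDN7 at most 48.3 CPM in the 8 and at least 131 CPM in the 12. PATJ and ZEB1 did not separate them: PATJ had 109 CPM in Sk-ChA-1 and 51.5 CPM in OZ, a line with 42.4 CPM of GRHL2.

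ZEB1 was expressed in most lines. It ranged from 0.0979 CPM in SNU-245 through a median of 20.6 CPM to 203 CPM in G415, with 16 lines at 1 CPM or more and 12 at 10 CPM or more. Per length, 12 lines had ZEB1 and 11 had SNAI2 at 1 CPM per kb or more, and 3 had ZEB1 and 8 had SNAI2 at 10 CPM per kb or more. In the 5 lines of low CDH1 it stood at 57 CPM in OCUG-1, 203 in G415, 61.2 in SNU-1079, 146 in HuH28 and 39.9 in NOZ. TGBC2TKB, Mz-ChA-2, Sk-ChA-1 and OZ, which kept CDH1, reached similar ZEB1 levels of 64.3, 42.6, 52.9 and 53.6 CPM, so the ranges overlap. No gap in ZEB1 was wide enough to separate clusters of lines. ZEB1-AS1, a noncoding transcript that starts beside ZEB1 on the opposite strand, had 3.78 to 29.9 CPM, and since the strand setting of the counting is not given, reads of the pair cannot be told apart where they overlap.

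ZEB2, the paralogue of ZEB1, was far more restricted: it was at 0 counts in 7 lines, had a median of 0.293 CPM and reached 62.6 CPM in HuH28, with TGBC2TKB next at 11.8 CPM. Among the lines of low CDH1 it had 2.87 CPM in OCUG-1, 3.91 in G415, 0.0822 in SNU-1079 and 0.471 in NOZ. HuH28 stood apart from the other 19 lines.

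SNAI2 had 0 counts in SNU-1196 and TKKK, a median of 3.02 CPM and 61.9 CPM in HuH28. Its 9 highest lines, at 12.8 CPM or more, were HuH28, TGBC2TKB, OZ, Sk-ChA-1, NOZ, HuCCT1, SNU-308, G415 and OCUG-1. They span the whole CDH1 range, since NOZ had 32.2 CPM of SNAI2 with 5.11 CPM of CDH1 and SNU-308 had 24.6 CPM of SNAI2 with 733 CPM of CDH1. SNU-1079, with low CDH1, had only 1.15 CPM of SNAI2. SNAI1 ranged from 0.224 CPM in Sk-ChA-1 through a median of 1.96 CPM to 33.3 CPM in HuH28, with Mz-ChA-2 at 32.5 CPM and TGBC2TKB at 16.9 CPM next. The other 4 lines of low CDH1 had 0.797 to 2.91 CPM of SNAI1.

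TWIST1, TWIST2 and PRRX1 were off in most lines. TWIST1 was counted at 1 CPM or more in 3 lines, SNU-308 at 6.23 CPM, SNU-869 at 3.01 CPM and TGBC14TKB at 2.87 CPM, and it had 0 counts in 16, which allows up to 0.212 to 0.294 CPM. All 3 lines with TWIST1 were in the upper range of CDH1, at 442 to 733 CPM, and none of the 5 lines of low CDH1 had a single TWIST1 count. TWIST2 was counted only in HuH28 at 8.13 CPM, Mz-ChA-2 at 2.1 CPM and TGBC14TKB at 1.89 CPM. PRRX1 was counted in HuH28 at 9.68 CPM, in TGBC2TKB at 3.78 CPM and with 2 counts in TGBC14TKB. The exact Poisson 95% interval of PRRX1 in HuH28 was 7.97 to 11.6 CPM.

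Which repressor accompanied low CDH1 was read line by line, with a repressor described as raised at 1 CPM or more and at least 2 times its median over the 20 lines. In OCUG-1 and G415 ZEB1, ZEB2 and SNAI2 were raised. In SNU-1079 ZEB1 alone was raised, 61.2 CPM against the median of 20.6 CPM. In NOZ SNAI2 alone was raised, and its ZEB1, at 39.9 CPM, fell just short of the limit. In HuH28, the line with fibroblast markers, 6 of the 7 were raised, all but TWIST1. ZEB1 and SNAI2 were thus each raised in 4 of the 5 lines, ZEB2 in 3, SNAI1, TWIST2 and PRRX1 in 1 and TWIST1 in none. At 4 times the median ZEB1 was raised in 2 of the 5 lines, and with a minimum of 5 CPM ZEB2 was raised in 1. Over all 20 lines ZEB1 and ZEB2 were each raised in 8, SNAI2 in 9, SNAI1 in 6, TWIST1 and TWIST2 in 3 each and PRRX1 in 2. For ZEB1 4 of the 8 lines kept CDH1, and for SNAI2 5 of the 9. ZEB2 was also raised in TGBC2TKB, Mz-ChA-2, Sk-ChA-1, HuCCT1 and TGBC18TKB, which kept CDH1. SNU-478, the next line above the gap with 34.9 CPM of CDH1, had no raised repressor, 1.01 CPM of ZEB1 and 66.8 CPM of GRHL2.

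To compare the levels of different genes, CPM was divided by the length of the transcript in kilobases. On that scale ZEB1 was the highest of the 7 repressors in OCUG-1 at 9.10 CPM per kb, in G415 at 32.4 and in SNU-1079 at 9.77. SNAI2 was the highest in HuH28, at 30.8 CPM per kb beside 23.2 for ZEB1 and 19.8 for SNAI1, and in NOZ, at 16 CPM per kb beside 6.37 for ZEB1. Over the 20 lines SNAI2 was the highest in 9, SNAI1 in 6, ZEB1 in 4 and TWIST1 in 1. Mz-ChA-2 was led by SNAI1 at 19.3 CPM per kb, with 6.80 for ZEB1 and 0.0774 for SNAI2. TKKK, with 886 CPM of CDH1, had no repressor above 0.344 CPM per kb.

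**Figure D2:**
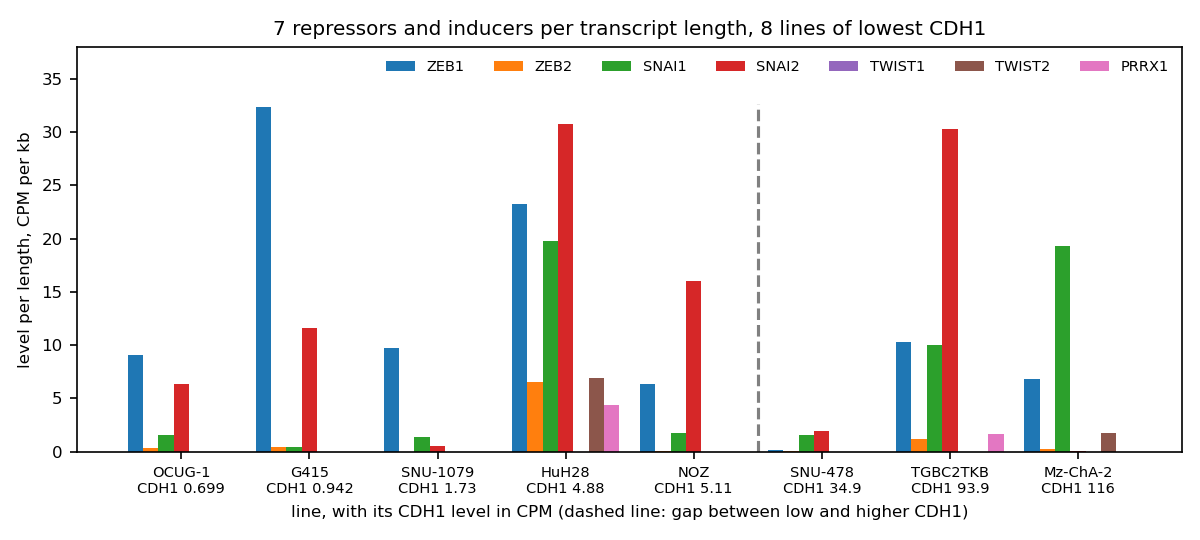
Bar chart of the level of 7 repressors and inducers, in CPM per kb of transcript, in the 8 lines of lowest CDH1 from left to right, with the CDH1 level under each name; each bar is 1 library, without an error bar. ZEB1 bars lead in OCUG-1, G415 and SNU-1079, SNAI2 bars in HuH28, NOZ, SNU-478 (at 1.93 CPM per kb) and TGBC2TKB, and the SNAI1 bar in Mz-ChA-2, at 19.3 CPM per kb.

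At a limit of 10 CPM, ZEB1 and GRHL2 were mostly, but not always, alternatives. With 10 CPM as the limit for each gene, not corrected for length, 8 lines held ZEB1 alone, 8 held GRHL2 alone, 4 held both and none held neither. The 8 lines with ZEB1 alone are the 8 in which all 3 epithelial factors were low. Among the 4 lines with both, OZ had 53.6 CPM of ZEB1 with 42.4 CPM of GRHL2 and 36.7 CPM of OVOL1, HuCCT1 19.5 CPM of ZEB1 with 88.3 CPM of GRHL2, TGBC18TKB 21.8 CPM with 95.7 CPM and SNU-1196 10.7 CPM with 126 CPM. CDH1 in these 4 lines was 231 to 603 CPM. The classes depend on the limit: at 1 CPM, 16 lines had ZEB1 and 14 had GRHL2. At that limit EGI-1, SNU-308, SNU-478, SNU-869, NOZ and TGBC2TKB also held both. A line is a population, so whether single cells held both transcripts was not measured.

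Along CDH1 the epithelial factors rose, and no repressor passed the test. Each gene was fitted with edgeR's quasi-likelihood test on the log2 level of CDH1 over the 20 lines, with Benjamini-Hochberg adjustment over 15583 genes, of which 2.03% passed in either direction with 1.18% higher and 0.847% lower as CDH1 rises. TWIST1, TWIST2 and PRRX1 did not pass the filter on low counts, so 7 of the 10 factors were tested, and 3 of them were called, all higher with CDH1. GRHL2 rose by 0.88 ± 0.18 log2 units (slope ± SE) per log2 unit of CDH1 (edgeR adjusted p = 0.0211), OVOL1 by 0.86 ± 0.18 (adjusted p = 0.0228) and OVOL2 by 0.70 ± 0.18 (adjusted p = 0.0464). ZEB1 had a slope of -0.43 ± 0.14 (unadjusted p = 0.00528, edgeR adjusted p = 0.0974) and ZEB2 of -0.56 ± 0.23 (adjusted p = 0.19), and neither passed. SNAI1, at -0.22 ± 0.17 (edgeR adjusted p = 0.524), and SNAI2, at -0.20 ± 0.21 (adjusted p = 0.672), were closer to 0. With DESeq2 ZEB1 passed, at -0.44 with an adjusted p of 0.00691, as it did with limma-voom, at -0.54 with an adjusted p of 0.0354, and on the ranks of CDH1, with an adjusted p of 0.0315. DESeq2 also called ZEB2 as lower (adjusted p = 0.0448). On ranks GRHL2, OVOL1 and OVOL2 missed the threshold (edgeR adjusted p = 0.0772, 0.125 and 0.156), and with limma-voom OVOL1 did (0.0677). Among the 15 lines above the CDH1 gap alone the slopes were 0.49 for GRHL2, 0.47 for OVOL1 and 0.27 for OVOL2, with edgeR adjusted p of 0.812, 0.851 and 0.875, so the calls rest on the 5 low lines. Without G415 GRHL2 and OVOL1 missed the threshold (edgeR adjusted p = 0.0571 and 0.0634), and OVOL2 missed it in 15 of the 20 fits that left out 1 line each, with adjusted p up to 0.1. Without HuH28 GRHL2 and OVOL1 passed and OVOL2 did not, and with HuH28, SNU-245 and Mz-ChA-2 all left out only GRHL2 passed (edgeR adjusted p = 0.0404, against 0.0774 for OVOL1 and 0.126 for OVOL2). With the repository as a covariate all 3 passed (edgeR adjusted p = 0.0466, 0.018 and 0.0489), while within the 6 KCLB lines (slopes 0.60, 0.73 and 0.52) and within the 6 RIKEN lines (1.56, 0.90 and 1.34) none did, and with the site as a covariate GRHL2 and OVOL1 missed it at adjusted p of 0.0568 and 0.0625 and OVOL2 at 0.12.

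**Figure D3:**
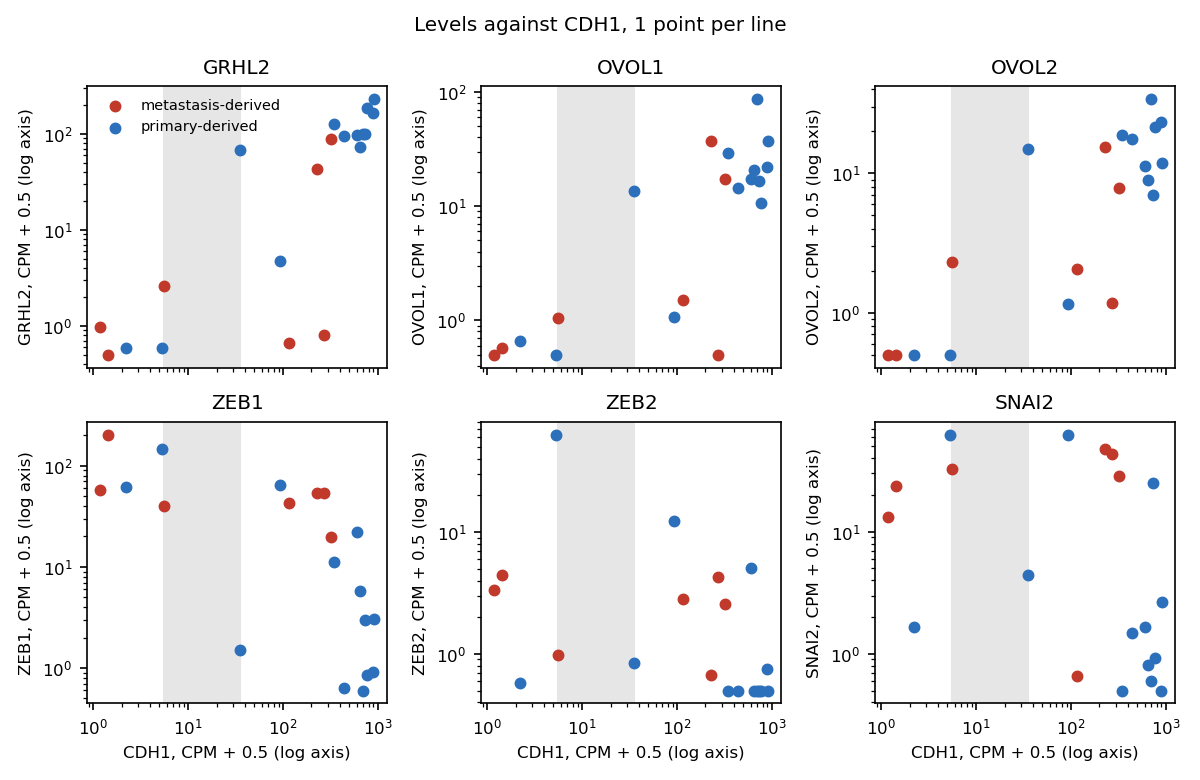
Level of 6 factors against the level of CDH1 in the 20 lines, as CPM + 0.5 on log axes; each point is 1 line, red for metastasis-derived and blue for primary-derived, and the grey band is the CDH1 gap from 5.11 to 34.9 CPM. GRHL2, OVOL1 and OVOL2 are low at every point left of the band and at 3 points right of it; ZEB1 is 39.9 CPM or higher left of the band and spread from 0.0979 to 64.3 CPM right of it; SNAI2 points are high and low on both sides.

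Along ZEB1 its paralogue ZEB2 rose, and edgeR called no other factor. In the same test on the log2 level of ZEB1, 2.47% of 15583 genes passed in either direction with 1.37% higher and 1.1% lower, and of the 6 other factors tested 1 was called. ZEB2 rose by 1.00 ± 0.20 log2 units per log2 unit of ZEB1 (edgeR adjusted p = 0.0127). It missed the threshold without HuH28 (edgeR adjusted p = 0.0607), with the repository as a covariate (0.275) and within the 6 RIKEN lines (0.467). SNAI2 had a slope of 0.63 ± 0.21 (edgeR adjusted p = 0.108) and SNAI1 of 0.33 ± 0.14 (adjusted p = 0.218). The slopes of GRHL2, OVOL2 and OVOL1 were -0.65 ± 0.24, -0.48 ± 0.17 and -0.42 ± 0.20 (edgeR adjusted p = 0.157, 0.144 and 0.288), and that of CDH1 was -0.46 ± 0.18 (adjusted p = 0.196). With limma-voom GRHL2, OVOL1 and OVOL2 all passed as lower, at adjusted p of 0.0313, 0.0313 and 0.00475. With DESeq2 SNAI2 passed as higher (adjusted p = 0.00228) and GRHL2, OVOL2 and CDH1 as lower (adjusted p = 0.00267, 0.0184 and 0.014).

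**Figure D4:**
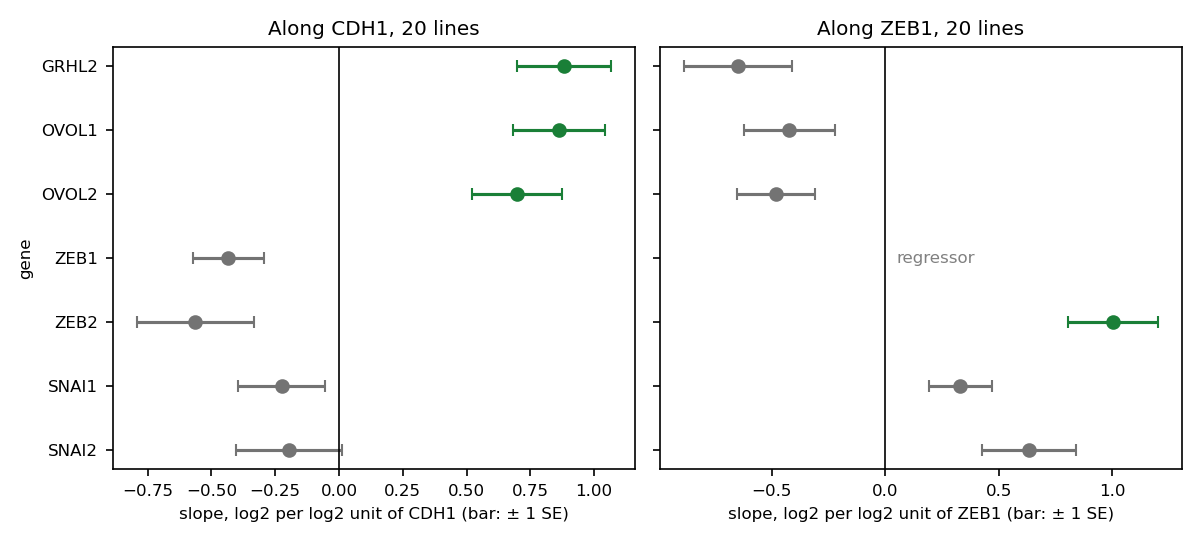
Slopes of the tested factors along CDH1 (left) and along ZEB1 (right) over 20 lines, in log2 units per log2 unit; points are edgeR estimates, bars are 1 SE to each side, and green marks an adjusted p under 0.05. The 3 epithelial factors lie at 0.70 to 0.88 in the left panel, and ZEB2 at 1.00 in the right panel.

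The genes these factors are known to act on were counted by list in both fits. Over all genes edgeR called 1.18% as higher and 0.847% as lower along CDH1. Of 31 epithelial genes tested along CDH1, 11 rose and 0 fell, with a median slope of 0.33 against 0.0039 over all genes. They included ESRP1, a splicing regulator (1.07 ± 0.19, edgeR adjusted p = 0.00994), SPINT1, a protease inhibitor (0.71 ± 0.14, adjusted p = 0.0147), ESRP2 (0.27 ± 0.06, adjusted p = 0.0308, and 0.0553 without HuH28), PPL, a desmosomal plakin (0.44 ± 0.10, adjusted p = 0.0308, and 0.0581 without HuH28), and CDS1, CLDN3, MARVELD3, PATJ, RAB25 and ST14, and TJP3 passed with an adjusted p that rounds to 0.05. CRB3 and CLDN7, with the 5 E-boxes each, had slopes of 0.51 ± 0.14 and 0.42 ± 0.14 and did not pass (edgeR adjusted p = 0.0589 and 0.105). The count of 11 fell to 2 without G415 and without HuH28, to 3 without NOZ, OCUG-1 or TKKK, to 4 without EGI-1, SNU-245, SNU-869 or TGBC18TKB, to 7 without OZ or TGBC14TKB and to 0 within the 15 lines above the gap. It was 24 with DESeq2, 7 with the repository and 1 with the site as a covariate, 2 on ranks, 0 within KCLB and within RIKEN lines and 3 with HuH28, SNU-245 and Mz-ChA-2 left out. Of 25 mesenchymal genes 0 rose and 2 fell along CDH1, TAGLN (-0.70 ± 0.14, edgeR adjusted p = 0.0147) and CCN2 (-0.53 ± 0.13, adjusted p = 0.0416), both genes of the actin cytoskeleton and matrix response, with a median slope of -0.53 for the list. Without HuH28 neither passed (edgeR adjusted p = 0.189 and 0.134). The count of 2 was 14 with DESeq2, 6 with no low count filter, 6 without TGBC2TKB, 3 without HuCCT1, OCUG-1 or SNU-308, 1 on ranks and without EGI-1, G415, NOZ, OZ, SNU-245, SNU-869, TGBC14TKB or TKKK, and 0 with limma-voom, with the repository or site as a covariate, within the 15 lines above the gap, within KCLB or RIKEN lines and with HuH28, SNU-245 and Mz-ChA-2 left out.

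Along ZEB1, edgeR called 10 mesenchymal genes as higher and 2 epithelial genes as lower, and the difference between the lists was not tested. Over all genes 1.37% were called as higher and 1.1% as lower along ZEB1. Of the 25 mesenchymal genes tested 10 rose and 0 fell, with a median slope of 0.61 against 0.00166 over all genes. CCN2 rose by 0.75 ± 0.11 (edgeR adjusted p = 0.00338), CCN1 by 0.63 ± 0.12 (adjusted p = 0.009) and MMP2, a matrix metalloproteinase, by 1.74 ± 0.36 (adjusted p = 0.0159, and 0.0556 without HuH28). ACTA2, AXL, FN1, TAGLN, TGFBI and VIM were also among those that rose. The count was 15 with DESeq2, 5 without HuH28 and 4 without SNU-245, 1 with the repository or the site as a covariate, 4 with limma-voom, 0 within KCLB or RIKEN lines and 2 with HuH28, SNU-245 and Mz-ChA-2 all left out. Of 32 epithelial genes tested along ZEB1, 0 rose and 2 fell, ESRP2 (-0.30 ± 0.07, edgeR adjusted p = 0.0228) and GRHL1 (-0.37 ± 0.09, adjusted p = 0.0404), with a median slope of -0.31. DESeq2 called 13 of these as lower, limma-voom 12 and the fit on ranks 5. The count of 2 was 4 without OZ or with no low count filter, 1 with the site as a covariate, and 0 with the repository as a covariate, within KCLB or RIKEN lines and with HuH28, SNU-245 and Mz-ChA-2 left out. Of 17 paralogues and cofactors, GRHL3 and FOXF2 rose along CDH1 (0.80 ± 0.20 and 0.96 ± 0.24, edgeR adjusted p = 0.0418 and 0.0433), and GRHL1, the grainyhead factor also on the epithelial list, was the only one edgeR called along ZEB1. GRHL3 and FOXF2 each missed the threshold in 10 of the 20 fits that left out 1 line, HuH28 among them, and GRHL1 along ZEB1 in 11, without EGI-1, G415, HuCCT1, HuH28, NOZ, OCUG-1, SNU-1079, SNU-245, SNU-308, Sk-ChA-1 or TGBC2TKB, each of which left ESRP2 as the only epithelial gene called along ZEB1. Of 21 genes of TGF-beta signalling, which induces the repressors, and of BMP signalling, edgeR called 0 along CDH1 and 0 along ZEB1. The nearest were BMP7 along CDH1 (1.43 ± 0.38, edgeR adjusted p = 0.0511) and TGFB1 along ZEB1 (0.26 ± 0.07, adjusted p = 0.0586). None of 15 genes that govern the turnover of the SNAIL and ZEB proteins was called in either fit. Over all genes 2.03% were called along CDH1 and 2.47% along ZEB1, so 0 calls in lists of 21 and 15 genes does not set these lists apart. Entries of the miR-200 family, which silences ZEB1 and ZEB2, had at most 1 count in any line and were not tested.

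The genes most like each factor over the 20 lines were taken from 15577 genes by Pearson's r of the log2 level, given as a description of lines that share library type and depth range. For ZEB1 they were KATNAL1 (r = 0.892, Spearman's rho = 0.86), PPP1R18 (r = 0.858) and CEP170 (r = 0.857). For GRHL2 they were RAB25, TMEM125 and ESRP1 (r = 0.98, 0.977 and 0.973). On each side of the gap of 8 and 12 lines the values were lower: within the 12 lines r of GRHL2 was 0.0378 with RAB25, 0.206 with TMEM125 and 0.269 with ESRP1, and within the 8 lines, where most counts were near 0, it was 0.86 to 0.872. OVOL1 was most like EPHA1 and BICDL2 (r = 0.974 each) and OVOL2 most like ESRP1 and EPS8L1 (r = 0.962 each), and within the 12 lines r was 0.493 and 0.65 for OVOL1, 0.49 and 0.531 for OVOL2. Within the 8 lines it was 0.899 and 0.713 for OVOL1 and 0.815 and 0.897 for OVOL2. SNAI2 was most like BDNF-AS, TXNDC15 and BDNF (r = 0.825, 0.82 and 0.804), of which BDNF-AS overlaps BDNF on the other strand. SNAI1 was most like OLFML3 and COL14A1 (r = 0.779 and 0.775) and ZEB2 most like OPN1SW and CTSA (r = 0.829 and 0.827). For the 3 genes expressed in 2 or 3 lines the measure rests on those lines: PRRX1 was most like MMP2 (r = 0.938, rho = 0.231, and r = 0.877 without HuH28), TWIST2 most like RIPOR2 (r = 0.89, rho = 0.703, and r = 0.854 without HuH28) and TWIST1 most like INA (r = 0.914, rho = 0.595).

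Metastasis-derived lines had ZEB1 throughout, but no factor passed the test of origin. ZEB1 had a lowest value of 19.5 CPM, a median of 52.9 CPM and a highest of 203 CPM in the 7 metastasis-derived lines, against 0.0979, 2.55 and 146 CPM in the 13 primary-derived lines. All 7 metastasis-derived lines were at 10 CPM or more, against 5 of 13 primary-derived lines, and the ranges overlap. The KCLB, DSMZ and ampullary lines were all primary-derived, and the Zurich lines and all HSRRB lines except HuH28 metastasis-derived. Origin therefore cannot be fully told apart from repository or site in these lines. GRHL2 had a lowest value of 0, a median of 0.466 and a highest of 88.3 CPM in metastasis-derived lines, against 0.0822, 95.7 and 231 CPM in primary-derived lines. SNAI2 averaged 26.7 ± 16.5 CPM in metastasis-derived lines and 12.1 ± 22.8 CPM in primary-derived lines (SD, n = 7 and 13). CDH1 averaged 135 ± 139 CPM in metastasis-derived lines and 474 ± 342 CPM in primary-derived lines. Of the 8 lines low in GRHL2, OVOL1 and OVOL2, 5 were metastasis-derived and 3 primary-derived. In edgeR's quasi-likelihood test of metastasis over primary lines, which called 0% of 14843 genes, 0 of the 7 factors tested passed. The log2 fold change was -2.32 ± 1.34 for GRHL2 (SE, unadjusted p = 0.098, edgeR adjusted p = 0.7), -1.77 ± 1.17 for OVOL2 (adjusted p = 0.759), -1.37 ± 1.28 for OVOL1 (adjusted p = 0.832), 1.44 ± 1.05 for ZEB1 (adjusted p = 0.778) and -1.82 ± 1.11 for CDH1 (adjusted p = 0.723). SNAI2 had 1.11 ± 1.20 (edgeR adjusted p = 0.865) and SNAI1 -0.06 ± 0.96 (adjusted p = 0.996). ZEB2 had -1.47 ± 1.62 (edgeR adjusted p = 0.867) and turned positive, at 0.65, without HuH28, the primary-derived line that holds its highest level. Over all genes 1147 had an unadjusted p under 0.05, and DESeq2 called 181.

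**Figure D5:**
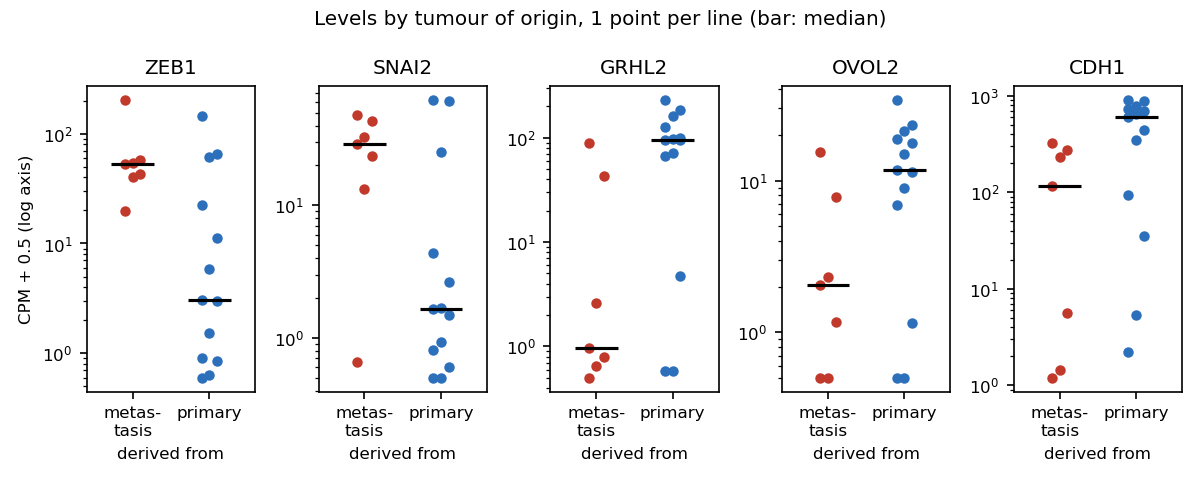
Level of ZEB1, SNAI2, GRHL2, OVOL2 and CDH1 in metastasis-derived (left, red, n = 7) and primary-derived lines (right, blue, n = 13), as CPM + 0.5 on a log axis; each point is 1 line and the bar is the median. ZEB1 is at 19.5 CPM or more in all 7 metastasis-derived lines, and the groups overlap in every panel.

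Among sites, the 3 ampullary lines all kept the epithelial factors, and the other sites were mixed. GRHL2 averaged 28.5 ± 46.4 CPM in gallbladder lines (SD, n = 7), 128 ± 88.0 CPM in extrahepatic lines (n = 5), 62.6 ± 78.3 CPM in intrahepatic lines (n = 4) and 78.0 ± 15.5 CPM in ampullary lines (n = 3). ZEB1 averaged 58.5 ± 68.3 CPM in gallbladder lines, 13.3 ± 22.5 CPM in extrahepatic lines, 56.7 ± 64.5 CPM in intrahepatic lines and 9.38 ± 11.0 CPM in ampullary lines. The 8 lines low in the epithelial factors comprise 5 of 7 gallbladder, 2 of 4 intrahepatic and 1 of 5 extrahepatic lines and 0 of 3 ampullary lines. Sk-ChA-1 was the extrahepatic exception, with 0.298 CPM of GRHL2 against 97.8 to 231 CPM in the other 4 extrahepatic lines. In the joint edgeR quasi-likelihood test of the 4 sites over 19 lines, without OZ, 0.00602% of 16615 genes passed and 0 of the 9 factors tested did. TWIST1 had the smallest p (unadjusted p = 0.0382, edgeR adjusted p = 0.44) and GRHL2 the largest (adjusted p = 0.896). PRRX1 was not tested for site. Over all genes 1771 had an unadjusted p under 0.05, and DESeq2 called 312.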

How the data were processed

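RNA was measured by sequencing in 20 cell lines with 1 library each. Values in the deposited table are raw read counts for each RefSeq entry, whole numbers that the authors did not normalize. Per the submitters' processing notes the reads went through Trimmomatic, TopHat2 2.0.8, Picard 1.69 and featureCounts on build hg19 (GRCh37). The annotation release was not given in the sources used here, nor was the strand setting of the counting. Of 24222 entries, 23512 were named through a RefSeq gene table and 354 through GENCODE metadata.

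Levels are CPM on TMM-scaled totals from the deposited counts. Tests used edgeR 4.0.16 in R 4.3.3 (filterByExpr filter, two-sided quasi-likelihood F tests with robust dispersion, prior count 2) on all genes, with calls at a Benjamini-Hochberg adjusted p under 0.05: the 4 sites jointly, metastasis against primary, and slopes on the log2 CPM of CDH1 or ZEB1, each left out of its own fit. The SE is the estimate divided by the square root of its F value. Because CDH1 and the factors come from the same libraries, the slopes are not tests between independent measurements. A line has no replicate, so p-values measure the spread between lines. Widest gaps were taken in log2(CPM + 0.5), and a gap over 0.25 of the range was called a separation. CPM per kb used the length of the GENCODE v29 transcript that carries the same RefSeq identifier. RefSeq promoter windows were searched for CACCTG and CAGGTG. Counts of 15987 genes were simulated with known slopes along CDH1. Of 98 genes with a slope of 0.5, 73.5% were recovered, and of 99 with a slope of 1, 86.9%. For origin, 58.3% of 96 genes with a log2 change of 2 were recovered over 15302 genes. Counts were drawn independently for each gene, so these rates need not hold for factors that were low or high together.

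The genes, their lists and the tests were chosen with earlier results of these data known. Named genes are the 10 factors and CDH1, the 3 genes of highest r per factor, and up to 4 genes of smallest p per list and fit. A gene that met this rule is not reported here. CRB3, CLDN7 and PATJ, the further members named in a count, the markers and the noncoding neighbours were added with their values known. As alternatives, the fits were repeated with RLE scaling, DESeq2 1.42.0, limma-voom (limma 3.58.1), other filters, priors and dispersion, repository, site or origin as covariates, ranks, subsets of lines and each line left out. Fits that leave out HuH28, SNU-245 and Mz-ChA-2 together, and r without HuH28, were chosen after seeing the data.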

Additional observations from a re-analysis of the deposited data

Results flagged for a closer look

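In groups of 4 to 10 lines, 9 values lay far from the rest of their group, by the gap to the nearest line over the range of log2(CPM + 0.5). The 39 combinations of a gene and a group with any spread were examined. For normally distributed values chance gives such a value in about 1 in 20, but these levels hold many counts of 0, so that rate does not apply. Where every other line of a group is at 0, a single line above 0 is always flagged. In Mz-ChA-2, SNAI1 was 32.5 CPM against 0.224 to 2.91 CPM in the other 6 metastasis-derived lines, and SNAI2 was 0.156 CPM against 12.8 to 47.2 CPM in them, so the SNAI paralogues lay apart in opposite directions in 1 line. TWIST2 in Mz-ChA-2, at 2.1 CPM, was the only value above 0 among metastasis-derived lines. In Sk-ChA-1, GRHL2 was 0.298 CPM against 97.8 to 231 CPM in the other 4 extrahepatic lines, and ZEB2 was 3.80 CPM against 0 in them. In HuH28, TWIST2 at 8.13 CPM and PRRX1 at 9.68 CPM stood against 0 in the other 3 intrahepatic lines. PRRX1 in TGBC2TKB was 3.78 CPM against 0 to 0.14 CPM in the other 6 gallbladder lines. TWIST1 in SNU-1196 was 0.076 CPM, which is 1 count, against 0 in the other 4 extrahepatic lines, and is under the 3 counts that a count of 0 allows.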

How the results depend on the processing

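Counts of called genes moved as follows, and the cause was not tested. Along CDH1 the 316 calls became 1618 with DESeq2, 811 with no low count filter, 111 with the repository and 32 with the site as covariate, 164 on ranks, 0 in the 15 lines of higher CDH1, 0 in KCLB and 1 in RIKEN lines and 62 without HuH28, SNU-245 and Mz-ChA-2. Leaving out 1 line gave 85 (without G415) to 462, with counts moved by over 1.5 times without EGI-1, HuH28, NOZ, OCUG-1, SNU-245, SNU-869, TGBC18TKB or TKKK as well. Along ZEB1 the 385 became 1222 with DESeq2, 1260 with no low count filter, 15 with the repository and 65 with the site as covariate, 0 in KCLB and 0 in RIKEN lines and 61 without the same 3 lines, and 168 (without HuH28) to 504 with 1 line left out, moved as much without G415, OCUG-1, SNU-245, TGBC2TKB or TKKK. For site the 1 call became 312 with DESeq2, 0 with repository, 0 with origin as covariate, 0 in primary lines alone and 0 to 2 with 1 line left out. For origin the 0 calls became 181 with DESeq2 and 0 to 1 with 1 line left out.

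Signs turned only in values that had not passed. For origin, ZEB2 was 0.66 with DESeq2, 2.84 with limma-voom, 1.37 with the site as covariate and -1.67 to 0.65 with 1 line left out. SNAI1 was 0.61 and SNAI2 -0.75 in gallbladder lines alone, and SNAI1 was -2.21 to 0.64 with 1 line left out. Along CDH1, SNAI2 was 0.021 with the repository as covariate and 0.29 in KCLB lines, where SNAI1 was 0.044. INHBA was 0.044 with the site as covariate and 0.43 in RIKEN lines, TGFBR1 0.055 in RIKEN lines, 0.019 without the 3 lines and -0.24 to 0.0074 with 1 line left out, and ACTA2 0.13 in the 15 lines and 0.067 in RIKEN lines. Along ZEB1, SNAI2 was -0.41 in KCLB lines. No paired analysis was possible because each line has 1 library and the labels match no line with another. In simulated data the site fit recovered 22.2% of 99 genes with a log2 difference of 2. Depth limits TWIST1, TWIST2, PRRX1 and ZEB2, whose counts lie near 0 in most lines.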
